A study of Mus musculus with 4 samples.

Results

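The genes described here make, load and carry the MHC class I complex. They were chosen by symbol and not by a threshold on measured values, though with earlier results of these data known: H2-K1, H2-D1, B2m, Tap1, Tap2, Tapbp, Psmb8, Psmb9 and Psmb10. Of these 9 genes, 8 had a row in the deposited table of 18091 gene symbols, and H2-D1 was not analysed here. Expression was measured on Illumina MouseRef-8 v2.0 arrays in 2 insulinomas of RT2 mice given sEphB4-Alb and 2 insulinomas of RT2 mice given PBS, 1 array per tumor. RT2 (Rip1Tag2) mice express the SV40 large T antigen in pancreatic beta cells from the insulin promoter. sEphB4-Alb is the soluble extracellular part of the EphB4 receptor fused to albumin, which binds ephrin-B2 and keeps it from its receptor. It was injected at 10 mg/kg 3 times a week from 10 weeks of age, PBS was injected on the same schedule, and the mice were 13.5 weeks old at collection. The sources differ on the strain: the sample labels give CD1 and C57/BL6 backgrounds for every tumor, the series' design text gives C57/BL6, and the study's methods describe sEphB4-Alb and PBS arms both in RT2 Dll4+/+ mice on a CD1 background and in RT2 mice on a C57BL6 background. For the arrays, the study's methods name tumors of RT2 Dll4+/+ mice, and its results report the arrays with the trial of Dll4+/+ and Dll4+/- mice. The strain of the 4 tumors stays unsettled, because the labels and the design text differ from that trial's CD1 background. The sources used here do not say which mouse gave which tumor or whether the 2 tumors of a group came from separate mice. P-values therefore measure only the spread between these tumors.

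MHC class I molecules show peptides from inside the cell to CD8+ T cells and NK cells. Proteins are cut by the proteasome, whose 3 catalytic subunits can be replaced by the interferon-inducible subunits that Psmb8, Psmb9 and Psmb10 encode. The TAP transporter, built from the Tap1 and Tap2 products, pumps peptides into the endoplasmic reticulum, where tapasin (Tapbp) holds the empty class I molecule at the transporter. The loaded heavy chain (H2-K1, H2-D1) reaches the surface only together with beta-2 microglobulin (B2m). Most nucleated cells use this pathway, and interferon-gamma and NF-kappaB signaling raise it through enhancer and Y box elements close to the start of the genes.

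Of the 8 genes, 6 lie on chromosome 17 in or beside the mouse MHC, B2m lies on chromosome 2 and Psmb10 on chromosome 8. RefSeq (GRCm38.p6) gave a window of 250 bases upstream of the start for 7 of the 8 genes, all but Tap2. The 3 windows below are shown because H2-K1 and B2m encode the 2 chains of the molecule and have the same set of motifs, and because the Tap1 window is also that of Psmb9. They lie at chr17:34000348-34000597 on the minus strand (H2-K1, the first of 2 windows), chr2:122147437-122147686 on the plus strand (B2m) and chr17:34187306-34187555 on the plus strand (Tap1). Capitals mark matches to the kappaB consensus, to the interferon regulatory factor core AANNGAAA, to TGACG and to the Y box CCAAT, searched on both strands.
H2-K1: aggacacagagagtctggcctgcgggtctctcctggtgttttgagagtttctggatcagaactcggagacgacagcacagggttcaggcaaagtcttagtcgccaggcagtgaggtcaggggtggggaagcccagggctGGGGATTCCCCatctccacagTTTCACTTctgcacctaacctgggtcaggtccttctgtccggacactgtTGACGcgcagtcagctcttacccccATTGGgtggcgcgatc
B2m: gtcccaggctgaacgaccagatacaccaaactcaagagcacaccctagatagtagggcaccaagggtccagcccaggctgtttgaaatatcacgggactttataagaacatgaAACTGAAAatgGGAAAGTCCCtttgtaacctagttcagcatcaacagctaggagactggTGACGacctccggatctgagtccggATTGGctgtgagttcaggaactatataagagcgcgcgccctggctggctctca
Tap1: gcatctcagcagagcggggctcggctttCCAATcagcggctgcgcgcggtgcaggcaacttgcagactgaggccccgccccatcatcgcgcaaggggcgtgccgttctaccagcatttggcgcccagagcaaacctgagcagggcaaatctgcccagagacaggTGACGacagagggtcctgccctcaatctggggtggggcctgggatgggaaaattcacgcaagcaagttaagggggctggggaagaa
In the H2-K1 window the kappaB consensus starts 111 bases before the start, with an overlapping match at 110, and is followed by the interferon regulatory factor core at 90, TGACG at 41 and a reversed Y box at 16. In the B2m window the interferon regulatory factor core comes first, at 137, and then the kappaB consensus at 126, TGACG at 78 and the reversed Y box at 53. Neither the kappaB nor the interferon regulatory factor match was found in the windows of Tap1, Psmb9, Tapbp, Psmb8 and Psmb10. The Tap1 window holds a Y box at 222 and TGACG at 86. Psmb9 is read in the opposite direction, and its start lies 225 bases from that of Tap1, so both genes share this stretch. Tapbp had 2 Y boxes, and Psmb8 and Psmb10 had none of the 4 motifs. Among 32851 windows of 250 bases, 7.25% held the kappaB consensus, 21.3% the interferon regulatory factor core, 33.8% the Y box and 17.8% TGACG. A match says only that these letters are present.

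The arrays differed before normalization. Median signals were 160 and 169 in sEphB4-Alb tumors 1 and 2 and 136 and 142 in PBS tumors 1 and 2, and 9360 to 11322 genes per array were above background. PBS tumor 1 correlated at 0.946 to 0.955 with the other arrays, which correlated at 0.976 to 0.979 with each other. After background correction and quantile normalization, 10626 genes above background on both arrays of at least 1 group were tested. Of these, 101 genes (0.95%) were at least 2-fold higher and 17 (0.16%) at least 2-fold lower in sEphB4-Alb tumors at an unadjusted p under 0.05, the thresholds of the study. None of them (0%) had an adjusted p under 0.05 with limma and Benjamini-Hochberg adjustment, while 684 had an unadjusted p under 0.05. Of the beta cell list, 7 of 9 genes were above background in at least 1 group, as were 10626 of all 18091 genes. Among the 7, Nkx6-1 and Pdx1 passed only through the sEphB4-Alb tumors. Ins2 was strong in every tumor, at 13.74 and 13.66 in sEphB4-Alb tumors and 13.20 and 12.81 in PBS tumors (log2 normalized signal). Slc2a2 and Mafa, which also mark beta cells, were not above background. Xist, expressed from the X chromosome in females, was 8.21 and 9.16 in sEphB4-Alb tumors, against 6.46 and 6.24 in PBS tumors, and the Y-linked Ddx3y was 6.47 and 7.16 in sEphB4-Alb tumors, against 8.84 and 9.41 in PBS tumors. Ddx3y was above background in the sEphB4-Alb tumors too, and the study's legends describe the mice of its tumor volume comparisons as male. These sex-linked transcripts ran with treatment, and sex and treatment cannot be told apart in these arrays. In bulk tumors, fewer cells of a type and less RNA per cell cannot be told apart either.

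No gene of the class I pathway passed the test between treatments. All 8 genes were above background on all 4 arrays. None was past 2-fold at an unadjusted p under 0.05 in either direction. Adjusted p-values with limma ran between 0.744 and 0.986. The log2 fold change (sEphB4-Alb minus PBS) was above 0 for 4 of the 8 genes and below 0 for 4, against 47.8% of all genes tested above 0. Their median was -0.02, or -0.06 over the 7 genes without H2-K1, and the median of all genes tested was -0.01. Both sEphB4-Alb tumors exceeded both PBS tumors for 2 of the 8 genes, B2m and Psmb10, an order that 18.5% of all genes tested had. The opposite order, which 20.7% of all genes had, was seen for none of the 8. With 2 tumors per group the two-sided exact permutation p cannot go below 0.333, so these orders are given as a description.

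**Figure D1:**
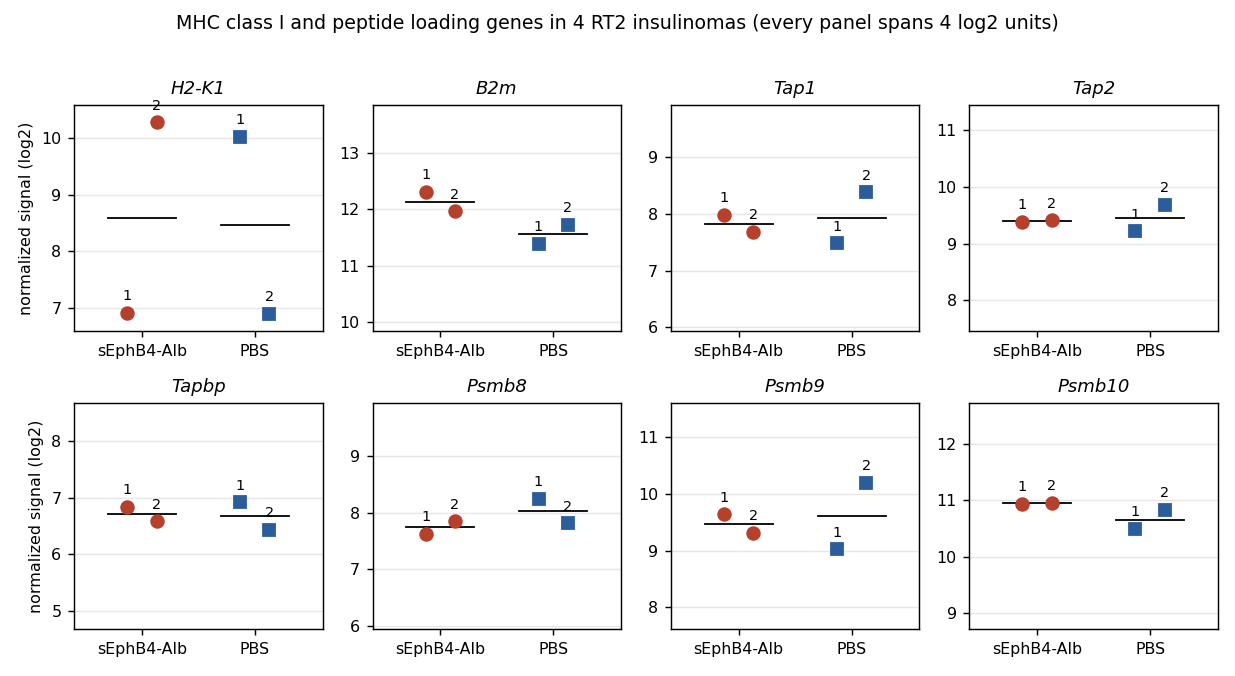
Normalized signal (log2) of the 8 class I pathway genes in each of the 4 insulinomas, with sEphB4-Alb tumors as red circles, PBS tumors as blue squares, tumor numbers beside the points and a line at each group mean. B2m and Psmb10 lie higher in both sEphB4-Alb tumors than in both PBS tumors, and H2-K1 is near 7 in 1 tumor of each group and above 10 in the other.

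H2-K1, the classical heavy chain H-2K, had the widest spread of the group. Its deposited signal was 189.6 and 1917 in sEphB4-Alb tumors 1 and 2, against 670.2 and 163.1 in PBS tumors 1 and 2, where the background limits of these arrays were 142, 144, 134 and 131. On the normalized log2 scale these were 6.91 and 10.28 in sEphB4-Alb tumors, and 10.02 and 6.90 in PBS tumors. One tumor of each group was therefore high and the other was little above background, and the groups overlapped completely. The gap was 3.37 between the sEphB4-Alb tumors and 3.12 between the PBS tumors, and the highest tumor was 10.4-fold above the lowest. Within groups the SD of H2-K1 was 2.29, larger than that of 99.9% of the genes tested (rank 10 of 10626, median SD 0.18). The difference between treatments was 0.14 (SE 1.49, 95% confidence interval -3.73 to 4.01, adjusted p = 0.986 with limma), so this interval leaves room for a change of many fold in either direction. The sign turned on which tumor was left out: the difference was -1.54 without sEphB4-Alb tumor 2 and -1.42 without PBS tumor 2, and 1.82 without sEphB4-Alb tumor 1 and 1.70 without PBS tumor 1. Class I heavy chain genes are close in sequence, which of them each probe binds is not given in the sources used here, and the H2-K1 row is uncertain to that extent.

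The H2-K1 pattern was shared by a few other genes, which were looked up after its values had been seen. By Euclidean distance between the 4 mean-centred log2 values, over the 8742 genes above background on all 4 arrays, the 4 nearest genes all lie on chromosome 17. Among the 10 nearest genes these 4 were the only ones on chromosome 17, which holds 5.13% of the 8349 such genes with a known chromosome. H2-Eb1, the class II beta chain of H-2E, was nearest (distance 0.45) with 6.68 and 10.17 in sEphB4-Alb tumors and 9.32 and 6.67 in PBS tumors. 2310039H08Rik followed (distance 0.66) with 9.09 and 11.72 in sEphB4-Alb tumors and 11.83 and 9.17 in PBS tumors. Zfp318, a zinc finger gene, was 7.34 and 8.72 in sEphB4-Alb tumors, against 8.74 and 7.58 in PBS tumors (distance 2.00). Slc35b2, a Golgi transporter of the sulfate donor PAPS, was 9.28 and 10.42 in sEphB4-Alb tumors, against 10.65 and 9.31 in PBS tumors (distance 2.03). All 4 genes had the same tumor of each group high as H2-K1. Neu1, the lysosomal sialidase, had the nearest mirror image of the H2-K1 pattern (distance 1.16) and was 10.11 and 8.04 in sEphB4-Alb tumors, against 8.07 and 10.18 in PBS tumors. It also lies on chromosome 17, as the only one of the 5 nearest mirror images. In the order of genes along chromosome 17, Tapbp comes first, followed by H2-K1, Psmb9, Tap1, Psmb8, Tap2, H2-Eb1, Neu1, H2-D1, Slc35b2, Zfp318 and 2310039H08Rik, with other genes between them.

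The 5 other class I pathway genes on chromosome 17 varied much less than H2-K1. Their ranges over the 4 tumors were 0.48 (Tap2), 0.49 (Tapbp), 0.62 (Psmb8), 0.91 (Tap1) and 1.19 (Psmb9), against 3.38 for H2-K1. Psmb8 was also higher in sEphB4-Alb tumor 2 and PBS tumor 1 than in the other two tumors, but sEphB4-Alb tumor 2 at 7.85 barely exceeded PBS tumor 2 at 7.81. With median scaling this split was lost, with Psmb8 at 7.81 in PBS tumor 1 and 7.83 in PBS tumor 2. Without normalization PBS tumor 1 was the lowest in Psmb8, at 7.56. Tap1, Tap2, Tapbp and Psmb9 did not have that split. Of the other class II chains, H2-Ab1 was 10.47 and 9.66 in sEphB4-Alb tumors, against 9.29 and 9.40 in PBS tumors, and did not have the pattern of H2-Eb1, while H2-Aa and H2-Ea were not above background. The summed normalized signal of the dendritic cell list, of which 3 of 7 genes were tested, was 373 and 389 in sEphB4-Alb tumors and 424 and 348 in PBS tumors. It was thus highest in the same 2 tumors as H2-K1, by much smaller ratios, with Itgax, Xcr1, Cd209a and Ccr7 not above background, and its part in the H2-K1 values was not tested. The summed signal of 10 acinar genes was 16843 and 68746 in sEphB4-Alb tumors and 6465 and 21173 in PBS tumors. The 2 tumors high in H2-K1 had the highest and the lowest of these sums, and the part of acinar cells in the H2-K1 values was not tested. Under each scaling tried, H2-K1 was higher in sEphB4-Alb tumor 2 and PBS tumor 1 than in the other two tumors.

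**Figure D2:**
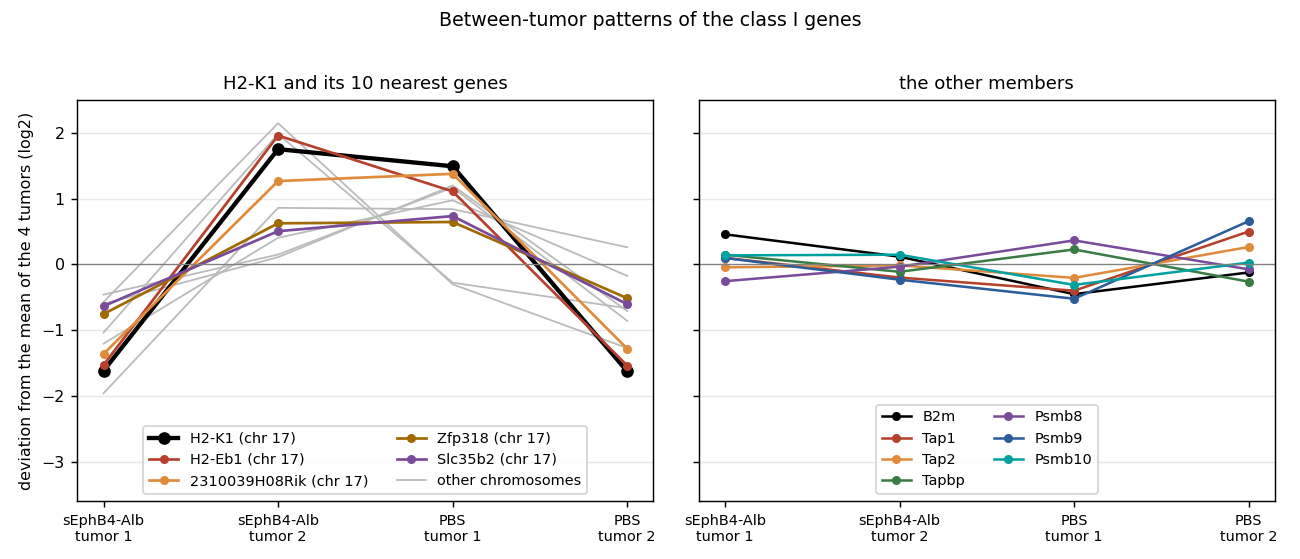
Deviation of each gene from its mean over the 4 tumors (log2), with a line joining the values of 1 gene: left, H2-K1, its 4 nearest genes on chromosome 17 in color and the others of its 10 nearest genes in gray, and right, the 7 other class I pathway genes. H2-K1 and H2-Eb1 are high in sEphB4-Alb tumor 2 and PBS tumor 1 and low in the other two tumors, and the 7 other genes stay close to 0.

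B2m, the light chain of every class I molecule, had the highest log2 fold change of the group. Its deposited signal was 5836 and 6157 in sEphB4-Alb tumors, against 1625 and 3323 in PBS tumors. After normalization it was 12.30 and 11.96 in sEphB4-Alb tumors, and 11.39 and 11.72 in PBS tumors, so that the groups did not overlap. Means were 12.13 ± 0.24 in sEphB4-Alb tumors and 11.56 ± 0.24 in PBS tumors (SD, n = 2 each). The log2 fold change was 0.58 (SE 0.21, 95% confidence interval 0.02 to 1.13), a 1.49-fold difference (1.02 to 2.19). It was above that of 95% of the genes tested but did not pass the adjustment (unadjusted p = 0.0441, adjusted p = 0.744 with limma). The unadjusted limma p was 0.136 without moderation, 0.132 without PBS tumor 1 and 0.252 without sEphB4-Alb tumor 1. B2m was the only one of the 8 genes with an unadjusted p under 0.05 and a fold change above 0, a combination that 3.75% of all genes tested had. The fold change depended on the scaling, being 1.06 with arrays scaled to a common median (adjusted p = 0.586 with limma) and 1.39 without normalization (adjusted p = 0.266 with limma), both past 2-fold at an unadjusted p under 0.05. These scalings also moved the median of all genes to 0.25 and 0.58, and relative to it B2m was at 0.81 under both. It was 0.41 without PBS tumor 1 and also without sEphB4-Alb tumor 1.

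Markers of several other cell types had mostly log2 fold changes above 0. Duct markers differed most often: all 8 were above 0, with a median log2 fold change of 0.77. In 7 of the 8 both sEphB4-Alb tumors exceeded both PBS tumors (18.5% of all genes tested). Only 5 of the 8 were above background on all 4 arrays. Krt19, Sox9 and Cftr passed the background filter only through the sEphB4-Alb tumors, which favors this order. Past both thresholds were 3 of the 8 (0.95% of all genes tested on the higher side). These were the duct keratin genes Krt8 (1.58, SE 0.46) and Krt19 (1.20, SE 0.28, above background in 1 of the PBS tumors) and the mucin gene Muc1 (1.58, SE 0.34), each with an adjusted p = 0.744 with limma. The duct list summed to 3027 and 3323 in sEphB4-Alb tumors, against 1071 and 2150 in PBS tumors (summed normalized signal). All 10 acinar genes were above 0, with a median of 1.71, 2 of them higher in both sEphB4-Alb tumors and none past the thresholds. Of the 5 fibroblast genes tested, 3 were above 0, and the collagen gene Col1a1 was past both thresholds, with 8.51 and 8.52 in sEphB4-Alb tumors, against 7.54 and 7.48 in PBS tumors (log2 fold change 1.01, SE 0.15, adjusted p = 0.714 with limma).

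Of the 5 general leukocyte genes, 4 were tested and Ptprc was not above background. Their summed normalized signal was 5879 and 4349 in sEphB4-Alb tumors, against 3164 and 3785 in PBS tumors, the same order of the 4 tumors as for B2m. Most of that sum was Laptm5, a lysosomal protein of blood cells, which was 12.18 and 11.71 in sEphB4-Alb tumors, against 11.08 and 11.59 in PBS tumors (log2 fold change 0.61, SE 0.27). The other 3 genes did not have the B2m order. Cd52 (0.98, SE 0.20) and Cd53 (0.47, SE 0.15) were higher in both sEphB4-Alb tumors, and Coro1a, an actin-binding protein of leukocytes, was -0.19 (SE 0.31). Cd52 is also among the genes that the study lists as more than 2-fold higher. Its deposited signal was 830.4 and 823.3 in sEphB4-Alb tumors, against 250.2 and 320.5 in PBS tumors. The macrophage list summed to 9935 and 8299 in sEphB4-Alb tumors and 11678 and 5280 in PBS tumors, and 7 of its 11 tested genes were higher in both sEphB4-Alb tumors, against 18.5% of all genes tested. Its high sum in PBS tumor 1 came with Lyz2, the macrophage and neutrophil lysozyme, at 12.84 in that tumor, against 9.94 in PBS tumor 2. The 7 tested beta cell genes summed to 17835 and 16326 in sEphB4-Alb tumors, against 12043 and 9248 in PBS tumors. The part of these cell types in the B2m values was not tested.

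Tap1 and Tap2, the 2 chains of the peptide transporter, overlapped between treatments. Tap1 was 7.98 and 7.68 in sEphB4-Alb tumors, and 7.48 and 8.38 in PBS tumors, with a log2 fold change of -0.10 (SE 0.34, 95% confidence interval -0.99 to 0.79, adjusted p = 0.959 with limma). Tap2 was 9.38 and 9.41 in sEphB4-Alb tumors, and 9.22 and 9.69 in PBS tumors, with a log2 fold change of -0.06 (SE 0.21, 95% confidence interval -0.62 to 0.49). In both genes the PBS tumors were the extremes, tumor 2 the highest and tumor 1 the lowest of all 4, and the sEphB4-Alb tumors lay between them. Both intervals lie within 2-fold in either direction. Tapbp, tapasin, was dim, with deposited signals of 182.1 and 166.3 in sEphB4-Alb tumors and 145.8 and 132.9 in PBS tumors. Its normalized values were 6.84 and 6.58 in sEphB4-Alb tumors, and 6.92 and 6.43 in PBS tumors (log2 fold change 0.03, SE 0.23, 95% confidence interval -0.57 to 0.63). In PBS tumor 2 the Tapbp signal was close to the background limit of that array, 131.

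The immunoproteasome subunits had log2 fold changes on both sides of 0, none past the test. Psmb8 (beta5i) was 7.63 and 7.85 in sEphB4-Alb tumors, and 8.25 and 7.81 in PBS tumors (log2 fold change -0.29, SE 0.22, 95% confidence interval -0.85 to 0.27, adjusted p = 0.792 with limma). Psmb9 (beta1i) was 9.64 and 9.31 in sEphB4-Alb tumors, and 9.02 and 10.20 in PBS tumors (log2 fold change -0.14, SE 0.42, 95% confidence interval -1.24 to 0.97). Psmb10 (beta2i) was 10.94 and 10.95 in sEphB4-Alb tumors, and 10.49 and 10.83 in PBS tumors (log2 fold change 0.29, SE 0.18, 95% confidence interval -0.19 to 0.77, adjusted p = 0.765 with limma). Psmb10 was the subunit whose groups did not overlap, by a gap smaller than that between the PBS tumors. Psmb9 varied most of the 3, with a gap of 1.19 between the PBS tumors and of 0.32 between the sEphB4-Alb tumors, and its SD within groups was above that of 95.3% of genes. Without normalization between arrays Psmb10 reached 1.08 and passed both thresholds (unadjusted p = 0.0478, adjusted p = 0.266 with limma), or 0.50 relative to the median gene.

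Each immunoproteasome subunit takes the place of a constitutive one, and the change of the gap between them was small. The log2 gap in sEphB4-Alb tumors minus that in PBS tumors was -0.11 for Psmb8 against Psmb5, 0.19 for Psmb9 against Psmb6 and 0.23 for Psmb10 against Psmb7. The constitutive Psmb6 was itself 11.93 and 12.17 in sEphB4-Alb tumors, against 12.44 and 12.31 in PBS tumors (log2 fold change -0.32, SE 0.17, adjusted p = 0.752 with limma). Of the 7 proteasome genes tested outside the group, including the activators Psme1 and Psme2 and the assembly factor Pomp, 4 were above 0 and 3 below, none past the thresholds. Psme1, the PA28 alpha chain, was 0.25 and Pomp -0.23 as log2 fold changes.

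Among themselves, Tap1 and Psmb9, which share the stretch of promoter printed above, had the most similar pattern of any 2 of the 8 genes. Their distance was 0.20, and the next pair, Tap2 and Psmb10, was at 0.36. Out of 8741 other genes, Tap1 was the 16th nearest to Psmb9 and Psmb9 the 54th nearest to Tap1. Tap1, Tap2 and Psmb9 were highest in PBS tumor 2 and lowest in PBS tumor 1, an order that 12.2% of all genes tested had. Of the 8 genes, 5 were lowest in PBS tumor 1 (34.3% of all genes tested), and Psmb8 and Tapbp were highest there (35.6%). Psmb8, which lies next to Tap1 on the chromosome, was at a distance of 1.03 from Tap1 and 1.22 from Psmb9. The genes outside the group that were nearest to its mean pattern were Drg2 (distance 0.01), 4933424B01Rik, Dlgap2, Cpt2 and Ide (0.03 each). H2-K1 weighs most in that mean, and in Drg2, a GTP-binding protein gene, the values were only 10.17 and 10.48 in sEphB4-Alb tumors and 10.30 and 10.21 in PBS tumors.

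**Figure D3:**
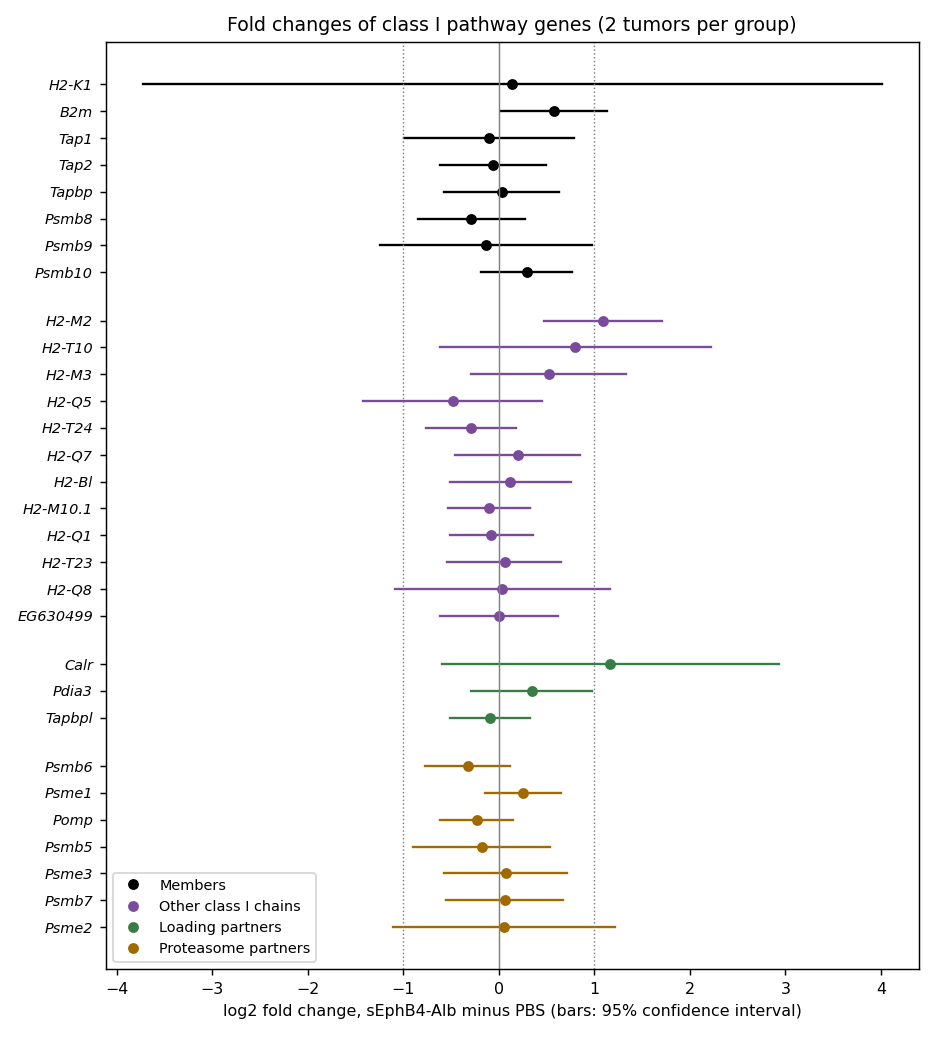
Log2 fold change (sEphB4-Alb minus PBS) with its 95% confidence interval for the 8 class I pathway genes and the tested genes of 3 related lists, with dotted lines at 2-fold. The interval of H2-K1 runs between -3.73 and 4.01, that of B2m starts at 0.02, and H2-M2 at 1.09 is the gene past both thresholds.

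The other class I heavy chain genes varied one by one. Of 23 listed genes, 16 were in the table and 12 were tested, with 8 above 0, 4 below and a median of 0.05. H2-M2, a class I gene of the M region with little known function, was the single one of the 12 past both thresholds (0.95% of all genes tested on the higher side). It was 10.29 and 9.83 in sEphB4-Alb tumors, against 8.79 and 9.15 in PBS tumors. Its log2 fold change was 1.09 (SE 0.24, unadjusted p = 0.00658, adjusted p = 0.744 with limma), and it was below 2-fold without PBS tumor 1 (0.91) and without sEphB4-Alb tumor 1 (0.86). H2-T10, a nonclassical chain seen by gamma delta T cells, was 10.81 in sEphB4-Alb tumor 1 and 9.19 in sEphB4-Alb tumor 2, against 9.10 and 9.29 in PBS tumors, so that its log2 fold change of 0.80 (SE 0.54) came from a single tumor. H2-M3, which presents formylated peptides, was 10.67 and 9.99 in sEphB4-Alb tumors, and 9.56 and 10.06 in PBS tumors (0.52, SE 0.31). Of 6 class I-like genes, 4 were tested and 3 were above 0. Cd1d1, which presents lipids to NKT cells, was 8.92 and 8.84 in sEphB4-Alb tumors, against 7.88 and 8.53 in PBS tumors (log2 fold change 0.67, SE 0.26, unadjusted p = 0.048, adjusted p = 0.744 with limma). Hfe, the iron regulator that pairs with B2m, was 7.41 and 7.33 in sEphB4-Alb tumors, against 7.04 and 7.06 in PBS tumors (0.32, SE 0.15). Fcgrt, the neonatal Fc receptor chain, which also pairs with B2m, overlapped between treatments (0.21, SE 0.22).

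Of the 5 further genes of the peptide-loading step, 3 were tested and Canx and Erap1 were not above background. Calr, the chaperone calreticulin, was 9.45 and 8.98 in sEphB4-Alb tumors, and 9.05 and 7.05 in PBS tumors. PBS tumor 2 stood apart and PBS tumor 1 overlapped with the sEphB4-Alb tumors, and the log2 fold change was 1.16 (SE 0.68, adjusted p = 0.761 with limma). Pdia3, the oxidoreductase ERp57 of the loading complex, was 12.54 and 12.27 in sEphB4-Alb tumors, and 12.33 and 11.79 in PBS tumors (0.35, SE 0.24). The study lists Pdia3 among the genes more than 2-fold higher in treated tumors, and its methods do not say how the arrays were scaled. Before normalization the deposited Pdia3 signal was 6907 and 7728 in sEphB4-Alb tumors, against 3110 and 3503 in PBS tumors. Tapbpl, the tapasin-related editor TAPBPR, was -0.09 (SE 0.16).

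Regulators of the pathway showed no shift past the test. Of 23 genes for interferon-gamma signaling, interferon regulatory factors, NF-kappaB, the Y box factors and the class I transactivator, 20 were tested, 9 were above 0 and 11 below, and none was past the thresholds. Nlrc5, the class I transactivator, listed in the table as AI451557, was 7.41 and 7.50 in sEphB4-Alb tumors, and 6.63 and 7.68 in PBS tumors (log2 fold change 0.30, SE 0.37). Its lowest value was that of PBS tumor 1, as for B2m, Tap1, Tap2, Psmb9 and Psmb10, and as for 34.3% of all genes tested. Irf8 was 0.36 (SE 0.18), Irf2 0.35 (SE 0.17) and Nfkb1 -0.34 (SE 0.16) as log2 fold changes, each with groups that did not overlap. Among the 20 tested regulators, 4 had every PBS value under the lower sEphB4-Alb value, against 18.5% of all genes tested. The reverse held for 3 of the 20, against 20.7% of all genes tested. Irf1 was -0.04 (SE 0.15) as a log2 fold change. Ifng itself, Socs1 and Rfx5 were not above background.

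Interferon-induced genes outside the class I pathway were tested for 17 of 24 listed genes. Of these, 12 were above 0 and 5 below, with a median of 0.19, and none was past both thresholds. Both sEphB4-Alb tumors exceeded both PBS tumors in 6 of the 17 (18.5% of all genes tested), and both were below in 2, Irgm1 (listed as Irgm) and Cxcl10 (20.7% of all genes tested). Usp18, a deconjugase of the ubiquitin-like ISG15, was 10.03 and 10.14 in sEphB4-Alb tumors, against 8.70 and 9.77 in PBS tumors (log2 fold change 0.85, SE 0.38, adjusted p = 0.746 with limma). Rsad2, the antiviral viperin, was 9.55 and 8.93 in sEphB4-Alb tumors, against 8.27 and 8.83 in PBS tumors (0.69, SE 0.31), and Oasl2 was 0.61 (SE 0.28). In these 3 genes PBS tumor 1 was the lowest, as in 34.3% of all genes tested.

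Few receptor genes of the cells that read class I were above background. Of 9 receptor genes, 6 were in the table and only Cd8b1 was tested (log2 fold change 0.19, SE 0.22), with Cd8a, Klrd1, Klrk1, Klra1 and Lilrb4 not above background. Of 14 T and NK cell genes, 8 were tested, and Cd4, Cd8a, Klrd1, Ncr1 and Gzmb were not above background. Only Cd3d, Lck and Prf1 were above background on all 4 arrays. Lck, a T cell kinase, was 7.82 and 7.71 in sEphB4-Alb tumors, against 8.02 and 7.89 in PBS tumors, and Prf1, perforin, had a log2 fold change of -0.07 (SE 0.54). The T cell receptor chain genes Cd3g and Cd3e, the adhesion receptor gene Cd2 and the granule gene Nkg7 exceeded background on each sEphB4-Alb array and on no PBS array. Cd3g was 6.78 and 6.60 in sEphB4-Alb tumors, against 6.15 and 6.18 in PBS tumors (unadjusted p = 0.0227, adjusted p = 0.744 with limma). These 4 genes were higher in both sEphB4-Alb tumors, 4 of the 8 tested against 18.5% of all genes tested. They passed the background filter only through the sEphB4-Alb tumors, which favors this order, so the count says nothing about T and NK cells. Of the genes above background on all 4 arrays, Cd3d and Prf1 overlapped between treatments and Lck had the opposite order. The 8 genes summed to 1067 and 1117 in sEphB4-Alb tumors, and 951 and 1042 in PBS tumors.

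The sign of the smaller fold changes depended on the scaling between arrays. With arrays scaled to a common median, the log2 fold changes were 0.22 for Tap1, 0.40 for Tap2, 0.10 for Psmb8 and 0.33 for Psmb9, all below 0 with quantile normalization. Relative to the median gene, which that scaling placed at 0.25, they were -0.03 for Tap1, 0.16 for Tap2, -0.15 for Psmb8 and 0.08 for Psmb9. B2m and Psmb10 were above 0 under all 4 scalings and relative to the median gene, and both kept the order of the groups.

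**Figure D4:**
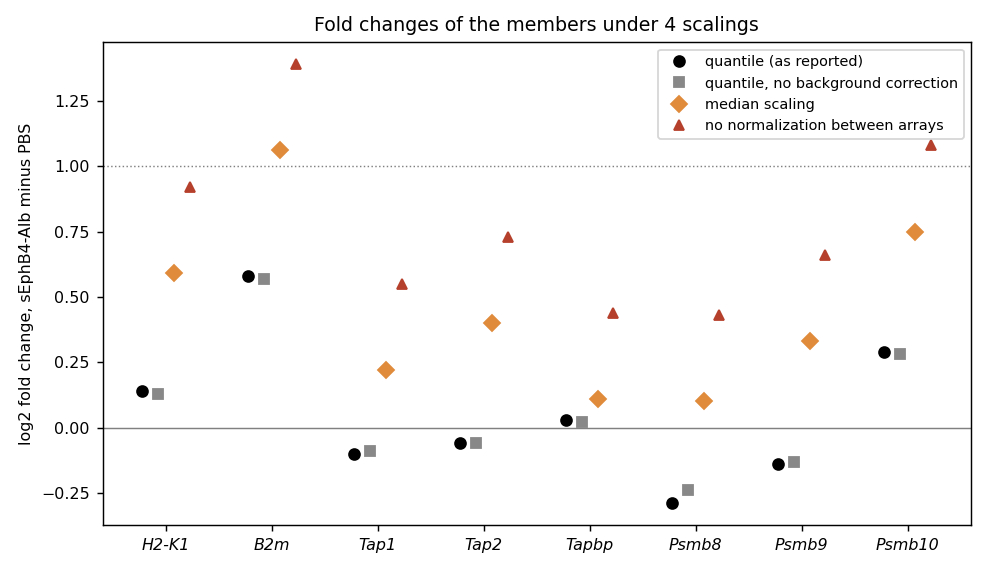
Log2 fold change (sEphB4-Alb minus PBS) of the 8 class I pathway genes under 4 scalings, with a dotted line at 2-fold. B2m lies at 0.58 with quantile normalization, 1.06 with median scaling and 1.39 without normalization, and Tap1, Tap2, Psmb8 and Psmb9 change sign between quantile normalization and the 2 scalings drawn last.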

How the data were processed

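Total RNA of 4 insulinomas was labelled and hybridised to 1 array each. The deposited intensity values are linear bead signals, 1 per gene symbol. Array minima of 92.1 to 100 and unequal medians show no sign of background subtraction or median scaling by the authors. Their software is not given in the sources used here. Another 8 value columns could not be tied to a single tumor and were left out.

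Signals were corrected by normexp (offset 50), quantile normalized and log2 transformed. The model sEphB4-Alb minus PBS was fitted by lmFit and eBayes (R 4.3.3, limma 3.58.1) with 2 residual and 4.80 moderated degrees of freedom, and p-values were adjusted by Benjamini-Hochberg over every gene tested. Above background means a signal over the mode of its array plus 1.645 times the spread below that mode, and genes above it on both arrays of at least 1 group were tested. The 2-fold threshold at an unadjusted p of 0.05 is that of the study. The number of arrays limits the precision. The fit was tested on simulated data. Gene symbols were matched to GRCm38.p6 (14090 directly, 3104 by a synonym).

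Named were all class I pathway genes, the 3 tested genes of each pathway list with the largest log2 fold change in size, any list gene past both thresholds and the 5 genes nearest to the mean pattern. Other genes were picked once their values were known, and markers of cell types are named where they bear on a result. Single values of some list genes are left out here. The genes and lists were chosen with earlier results of these data known. Alternatives were median scaling, no normalization, uncorrected background, other filters on dim genes, no moderation, a robust prior with an intensity trend, the exact Mann-Whitney-Wilcoxon test that the study's methods name, a 1.5-fold threshold, a replicate block and each array left out, which keeps the normalization and the genes tested.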

Additional observations from a re-analysis of the deposited data

How the results depend on the processing

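No class I pathway gene reached an adjusted p under 0.05 under any alternative, and with the Mann-Whitney-Wilcoxon test none could. Over the 8 genes and H2-M2, 85 of the refitted fold changes kept their direction and side of the thresholds, 17 changed sign, 3 came past the thresholds and 3 (H2-M2) fell short of them. The cause of these moves was not tested.

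With median scaling, 1 class I pathway gene passed both thresholds (B2m, 1.06), the median log2 fold change of the 8 genes was 0.37, and 293 of all genes were higher and 7 lower (97.7% higher, against 85.6% with quantile normalization). Without normalization 2 passed (B2m 1.39, Psmb10 1.08), 4 were higher in both sEphB4-Alb tumors (73.6% of all genes), the median was 0.70, and 1092 genes were higher and 3 lower (99.7% higher). Relative to the median gene both medians were 0.12. Tap1, Tap2, Psmb8 and Psmb9 changed sign, at 0.22, 0.40, 0.10 and 0.33 with median scaling and at 0.55, 0.73, 0.43 and 0.66 without normalization.

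Of all genes, 66 were higher and 7 lower without background correction, and 67 were higher when above background on all 4 arrays. Without moderation 32 were higher and 8 lower, and 1 gene had an adjusted p under 0.05. At 1.5-fold 267 were higher and 123 lower (68.5% higher). With the Mann-Whitney-Wilcoxon test 0 and 0 passed, which was fixed in advance, because its exact two-sided p cannot go below 0.333 with 2 tumors per group. H2-M2 had an unadjusted p of 0.0638 without moderation.

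Leaving out 1 array gave 84 to 296 higher and 24 to 169 lower genes, with 63.7% higher without PBS tumor 2. Class I pathway genes higher in every sEphB4-Alb tumor left than in every PBS tumor left ranged between 2 and 5 (28.6% to 40.5% of all genes, against 18.5% with 4 arrays), and the median log2 fold change between -0.07 and 0.27, the highest without PBS tumor 2. Leave-one-out ranges were -1.54 to 1.82 for H2-K1, 0.41 to 0.75 for B2m, -0.55 to 0.35 for Tap1, -0.30 to 0.18 for Tap2, -0.21 to 0.27 for Tapbp, -0.51 to -0.08 for Psmb8, -0.73 to 0.46 for Psmb9, 0.12 to 0.46 for Psmb10 and 0.86 to 1.32 for H2-M2. A tumor left alone in its group was assumed to vary like the other group.

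The titles number the tumors 1 and 2 in each group, and deviations of same-numbered tumors correlated at 0.0406 across genes. A single correlation over all genes cannot tell whether such tumors share more than the number, and the labels do not say. With the number as a replicate block, 155 genes were higher and 22 lower, against 101 and 17. No class I pathway gene then passed the thresholds (B2m unadjusted p = 0.0692 with limma).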
